A study of Mus musculus with 15 samples.

Results

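The caveola genes described here are the caveolins Cav1, Cav2 and Cav3, the cavins Cavin1, Cavin2 and Cavin3, and the membrane ATPase Ehd2, chosen by name as 7 genes of the 46603 Ensembl identifiers that were counted. RNA-Seq was performed on wild-type BALB/c mouse embryonic fibroblasts (MEFs) taken, per the labels, from embryos aged 10.5 days, in 5 conditions of 3 samples each. The paper's introduction describes MEFs of another strain and from older embryos, without saying that these cells are meant. MEFD0 was day 0, before treatment, in growth medium (DMEM with 10% FBS), and MEFD3min and MEFD5min were left without the differentiation cocktail until days 3 and 5. MEFD3plu received, in growth medium, the phosphodiesterase inhibitor IBMX (0.5 mM), the PPARγ agonist rosiglitazone (10 μM), the glucocorticoid dexamethasone (1 μM) and insulin (10 μg/mL). MEFD5plu was the treated arm at day 5; by the study's methods the cocktail was withdrawn at day 3 and the cells were kept in growth medium afterwards, so this arm differs from MEFD3plu in time and in the presence of the drugs. All conditions share strain, genotype, serum and cell type. The replicates are numbered 1, 3 and 4, and values for a condition are given in that order. The study's statistics section speaks of independent experiments in general, but the labels do not say whether these libraries came from separate isolations or cultures, so the p-values measure the spread between these samples, which may be technical.

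Caveolae are flask-shaped pits of the plasma membrane, abundant in adipocytes, endothelium and muscle. Caveolins insert into the inner leaflet of the membrane and form its scaffold, cavins bind from the cytosol as a peripheral coat, and Ehd2 sits at the neck and holds the pit at the surface. In adipocytes caveolae are known for buffering membrane tension, for fatty acid handling and for a link to insulin receptor signalling, and loss of CAV1 or CAVIN1 in patients and mice leads to lipodystrophy.

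Both of the expressed caveolin genes, which lie next to each other on chromosome 6, were higher in the treated arm on both days, whereas the cavins diverged from each other. By gene annotation of GRCm38, Cav2 occupies chr6:17281185-17289115 and Cav1 chr6:17306335-17341452, both on the plus strand, with 17219 bases between them. Cav3, the muscle caveolin, lies further along the same chromosome at chr6:112459505-112472872, on the plus strand. Cavin1 is at chr11:100956733-100970887 on the minus strand, Cavin2 at chr1:51289126-51302960 on the plus strand, Cavin3 at chr7:105480083-105482300 on the minus strand and Ehd2 at chr7:15946958-15967567 on the minus strand. All 7 are protein-coding. Exons of Cavin3 are overlapped over 22.5% of their bases by an antisense gene, Gm45667, that was not among the counted identifiers. The sources name both a stranded and an unstranded library kit, so reads of this antisense gene cannot be told apart from those of Cavin3, and its level is uncertain to that extent. The other 6 genes have no exon overlap with another gene and share no stretch of 50 bases with one.

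Promoter entries from RefSeq (GRCm38.p6) were found for 6 of the 7 genes, Cavin3 being the exception. The 250 bases before the annotated start of Cav2, Cav1 and Cavin2 are shown. The neighbours Cav2 and Cav1 were higher with treatment on both days. Cavin2 was also higher at day 3, but had no call at day 5. GC boxes (GGGCGG) and CCAAT boxes (CCAAT), searched on both strands, are in capitals, so that CCGCCC marks a GC box read on the opposite strand. The windows are chr6:17280935-17281184 for Cav2, chr6:17306085-17306334 for the first of the Cav1 starts and chr1:51288876-51289125 for Cavin2, all on the plus strand.
Cav2: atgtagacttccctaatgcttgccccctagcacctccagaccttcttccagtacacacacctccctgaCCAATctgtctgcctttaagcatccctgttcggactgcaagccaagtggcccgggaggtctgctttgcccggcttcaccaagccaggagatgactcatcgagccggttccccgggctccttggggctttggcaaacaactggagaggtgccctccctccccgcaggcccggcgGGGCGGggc
Cav1: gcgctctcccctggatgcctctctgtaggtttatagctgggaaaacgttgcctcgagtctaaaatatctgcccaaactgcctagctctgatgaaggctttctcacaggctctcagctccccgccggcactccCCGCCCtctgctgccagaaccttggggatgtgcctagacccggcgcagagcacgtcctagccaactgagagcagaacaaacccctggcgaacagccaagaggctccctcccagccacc
Cavin2: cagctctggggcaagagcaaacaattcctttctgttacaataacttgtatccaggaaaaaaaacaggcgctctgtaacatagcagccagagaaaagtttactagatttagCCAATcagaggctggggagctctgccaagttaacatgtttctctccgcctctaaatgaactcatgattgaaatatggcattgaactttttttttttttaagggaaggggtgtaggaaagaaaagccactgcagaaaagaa
The Cav2 window holds 1 GC box and 1 CCAAT box and is 62% G or C. The Cav1 window holds 1 GC box and no CCAAT box and is 59.6% G or C. The Cavin2 window holds 1 CCAAT box and no GC box, and at 40.4% G or C it lies below the median of 52.4% over 32851 promoter windows of the same length. These letters are common, as 32.7% of all windows hold a GC box and 33.8% a CCAAT box. The C/EBP-type letters TTNNGNAA occurred 2 times in the Cav2 window and in neither of the other 2, against 36.8% of all windows with at least 1. The nuclear receptor half-site AGGTCA was in none of these 3 windows, and in 4607 of all 32851. Of the windows not shown, that of the second Cav1 start (chr6:17307390-17307639) and that of Cav3 hold neither a GC box nor a CCAAT box. Those of Cavin1 and Ehd2 hold 1 GC box and 1 CCAAT box each. The matches describe the letters in these windows and say nothing of binding.

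Genes of the fibroblast list were counted in every condition, at levels that differed between conditions. The summed level of 9 fibroblast genes, which include the collagens and Pdgfra, ran from 10542 to 12075 CPM (the gene's counts scaled to a common library size with edgeR's TMM factors) in MEFD0 and from 24638 to 36025 in MEFD3min, and lay between 12066 and 16105 in the other 3 conditions. The largest part of this sum was Vim in MEFD0 (mean 6542 CPM) and Col3a1 in MEFD3min (mean 8681 CPM), where Vim was at 2814. Col3a1 was at 215 CPM in MEFD0, and Dcn was at 15.3 in MEFD0 and 2830 in MEFD3min. Of the 9 genes, 6 were higher and 2 lower in MEFD3min than in MEFD0, beside 31.4% and 28.6% of all genes. The summed level of 8 adipocyte genes lay between 42.2 and 65.2 CPM in the 9 samples of MEFD0, MEFD3min and MEFD5min, and was 7441 to 9166 in MEFD3plu and 9670 to 11429 in MEFD5plu. Of the 7 adipocyte genes that could be tested, 7 were higher with treatment on both days; the adipokine Lep was too low to test. Markers of endothelium, striated muscle and macrophages were at low levels. The sum of 8 endothelial genes stayed between 1.20 and 18.8 CPM with Cldn5 at 0 in every condition, that of 8 striated muscle genes between 0.269 and 2.86 CPM with Myod1 at 0 in every condition, and that of 5 macrophage genes between 2.07 and 6.97 CPM with Adgre1 at 0 in every condition. The summed level of 5 smooth muscle genes, which include Acta2, was lower in the treated arm on both days: 153 to 191 CPM in MEFD3min against 68.9 to 79.5 in MEFD3plu, and 786 to 898 in MEFD5min against 217 to 228 in MEFD5plu. Of these 5 genes, 2 were higher and 2 lower with treatment at day 3, and 1 was higher and 4 lower at day 5. Of the 9 fibroblast genes, 1 was higher and 7 lower at day 3, and 2 were higher and 3 lower at day 5. These marker counts use edgeR's test with an adjusted p under 0.05. Over all genes tested, 28.0% were higher and 28.0% lower at day 3, and 26.3% higher and 24.2% lower at day 5. The part of these other cell markers in the results was not tested. In bulk samples such as these, fewer cells expressing a gene and less RNA of it per cell cannot be told apart.

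Together the 7 genes took 0.243% ± 0.00410 (SD, n = 3) of all counts in MEFD0, 0.132% ± 0.00428 without and 0.258% ± 0.00334 with treatment at day 3, and 0.186% ± 0.0106 without and 0.246% ± 0.00560 with treatment at day 5. Library totals ran from 24030558 to 37281126 counts. Cav3 had 0 counts in all 15 libraries, which allows a level of at most 0.0795 to 0.117 CPM depending on the library (3 counts; counting error only). The remaining 6 genes passed the filter on low counts, the lowest single value being 465 counts, for Cav2, and they are among the 15997 genes tested.

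**Figure D1:**
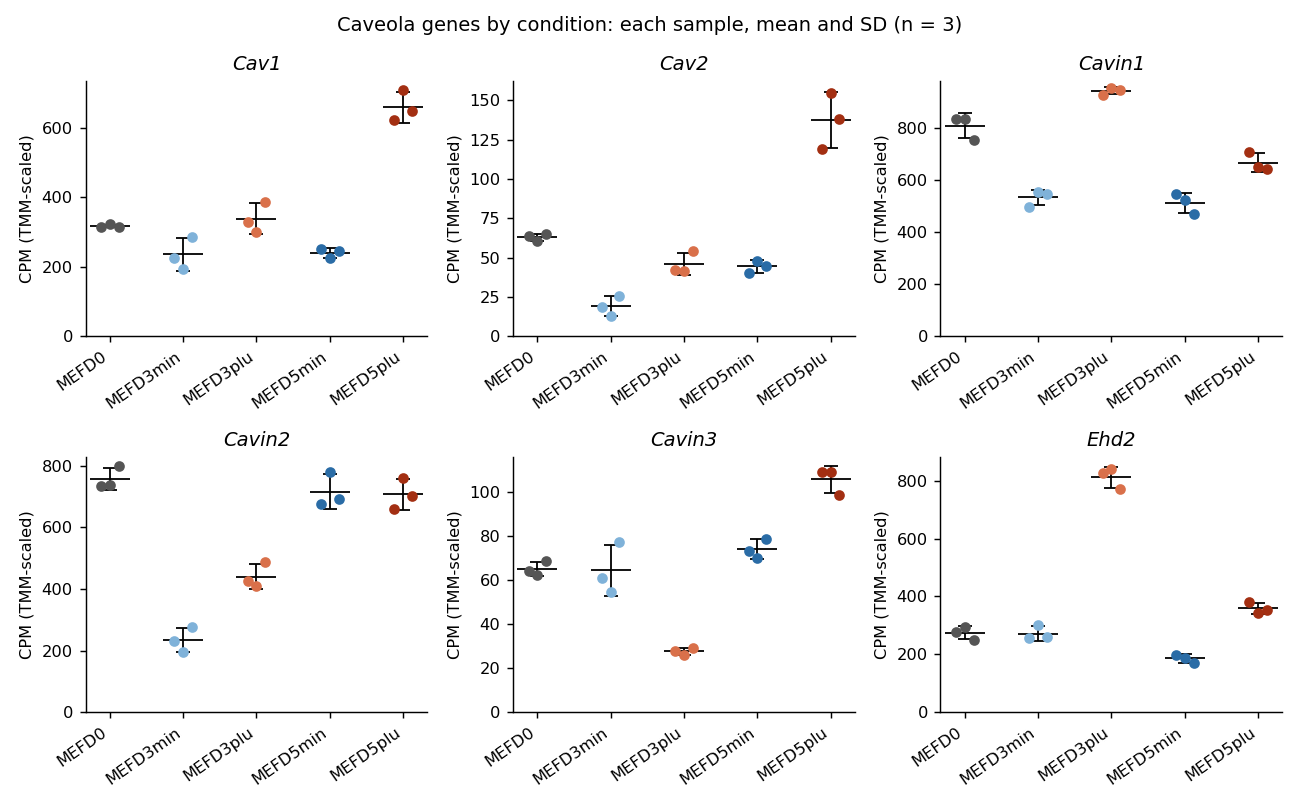
CPM of the 6 expressed caveola genes in each of the 15 samples (points), by condition, with the mean (long line) and SD (n = 3); each panel has its own linear axis from 0. Cav1 and Cav2 were highest in MEFD5plu, Cavin1 and Ehd2 in MEFD3plu, and Cavin3 was lowest in MEFD3plu and highest in MEFD5plu.

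With treatment, 5 of the 6 measured genes were higher at day 3 and 1 was lower, whereas 5 were higher and none lower at day 5 (edgeR's quasi-likelihood test, Benjamini-Hochberg adjusted p under 0.05 over all genes tested). The transcriptome as a whole moved widely: 28.0% of all genes tested were higher and 28.0% lower in MEFD3plu than in MEFD3min, and 26.3% were higher and 24.2% lower in MEFD5plu than in MEFD5min. The median log2 fold change of the 6 genes was 0.87 at day 3 and 0.73 at day 5, against -0.00057 and 0.010 over all genes. The genes were chosen with earlier results of these data known, so these medians and counts describe them and are no test of the set. For 5 of the 6 genes the treatment effect at day 3 was not that at day 5. Their log2 fold change was higher at day 3 than at day 5 for 3 and lower for 2, beside 22.6% and 25.8% of all genes. By mean level Cav1, Cav2 and Cavin3 were highest in MEFD5plu and Cavin1 and Ehd2 in MEFD3plu, while the top of Cavin2 was not resolved, since MEFD0, MEFD5min and MEFD5plu overlapped.

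Cav1 encodes caveolin-1, the scaffold protein without which caveolae do not form outside striated muscle. Its level in MEFD0 was 315, 323 and 316 CPM. In the untreated arm it was 226, 195 and 287 CPM at day 3 and 253, 225 and 245 CPM at day 5. In the treated arm it was 331, 300.3 and 387 CPM at day 3 and 622, 709 and 650 CPM at day 5. Every treated sample was above every untreated sample of its day, by a small margin at day 3, where the highest MEFD3min sample and the lowest MEFD3plu sample lay close together, and by a wide one at day 5. Treatment was associated with a 1.44-fold higher level at day 3 (log2 fold change 0.52 ± 0.12 SE, adjusted p = 0.00131) and a 2.74-fold higher level at day 5 (1.45 ± 0.12, adjusted p = 4.96e-08). In an edgeR fit of the compared samples only, the day 3 value was 0.51 (adjusted p = 0.0247). The day 3 effect minus the day 5 effect was -0.93 (95% interval -1.29 to -0.57, adjusted p = 0.000251). By mean level the order was MEFD5plu, MEFD3plu, MEFD0, MEFD5min and MEFD3min. MEFD3plu and MEFD0 overlapped, as did MEFD5min and MEFD3min, so the order within these pairs is not resolved.

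Cav2 encodes caveolin-2, which depends on caveolin-1 to reach the cell surface and assembles with it. It was the least abundant of the 6 by mean level per length and the one that varied most across conditions, its highest mean being 7.16 times its lowest. In MEFD0 it stood at 63.8, 60.6 and 64.8 CPM. Without treatment it was 19.0, 13.1 and 25.5 CPM at day 3 and 40.0, 48.2 and 45.0 CPM at day 5, and with treatment 42.1, 41.7 and 54.1 CPM at day 3 and 119, 155 and 138 CPM at day 5. All samples of MEFD5plu lay above all others and all samples of MEFD3min below all others, whereas MEFD3plu and MEFD5min overlapped. The treated arm was 2.40-fold higher at day 3 (log2 fold change 1.27 ± 0.17 SE, adjusted p = 9.30e-06) and 3.10-fold higher at day 5 (1.63 ± 0.17, adjusted p = 7.28e-07). For Cav2 the difference between the effects of the 2 days did not pass the threshold (-0.36, 95% interval -0.88 to 0.15, adjusted p = 0.229). This value rested on the MEFD3min samples: it was -0.58 (adjusted p = 0.0137) without replicate 3, the lowest Cav2 sample, and -0.11 (adjusted p = 0.701) without replicate 4, the highest of that condition. It was -0.18 (adjusted p = 0.547) with scaling by total counts alone.

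Cav2 was also set against its neighbour within each library. There were 0.198 ± 0.00916 Cav2 counts per Cav1 count in MEFD0, 0.0800 ± 0.0115 and 0.135 ± 0.00710 in the untreated and treated samples of day 3, and 0.185 ± 0.0281 and 0.208 ± 0.0138 in those of day 5 (SD, n = 3). The ratio was higher in every MEFD3plu sample (0.127 to 0.140) than in any MEFD3min sample (0.0670 to 0.0889), a log2 difference of 0.77. With 3 samples against 3 the exact two-sided permutation test cannot give less than p = 0.1, which is what this comparison gave (0.2 after adjustment over 4 ratio comparisons). At day 5 the ratios overlapped (log2 difference 0.17, exact permutation p = 0.3). The nearest tested genes outside the pair, named after their values were seen, had fold changes of the opposite sign. Met, the hepatocyte growth factor receptor on the Cav1 side, was lower with treatment at day 3 (log2 fold change -0.30 ± 0.10, adjusted p = 0.0160) and at day 5 (-1.20 ± 0.095, adjusted p = 2.24e-08). Gm4876, on the Cav2 side, had a log2 fold change of -0.46 ± 0.99 at day 3 (adjusted p = 0.714) and was lower at day 5 (-2.55 ± 0.75, adjusted p = 0.00907).

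Cavin1, also called PTRF, is the coat protein that every caveola requires and that recruits the other cavins. Its level was 836, 838 and 755 CPM in MEFD0. Without treatment it was 499, 555 and 549 CPM at day 3 and 547, 523 and 470 CPM at day 5. With treatment it was 930, 956 and 946 CPM at day 3 and 708, 651 and 643 CPM at day 5. The treated samples were above the untreated ones on both days without overlap, but, unlike the caveolins, Cavin1 had its highest level in MEFD3plu. Treatment went with a 1.77-fold higher level at day 3 (log2 fold change 0.82 ± 0.083 SE, adjusted p = 2.28e-07) and a 1.30-fold higher level at day 5 (0.38 ± 0.083, adjusted p = 0.00111). The day 5 value was 0.22 (adjusted p = 0.0377) with scaling by total counts alone. The difference of these effects was 0.44 (95% interval 0.19 to 0.69, adjusted p = 0.00500). Across conditions it varied least of the 6, with a highest mean 1.84 times the lowest, and only MEFD3min and MEFD5min, the lowest pair, overlapped among neighbours in the order.

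A ratio of 2 genes within a library does not depend on how the library is scaled. Cavin1 counts per Cav1 count were 2.55 ± 0.140 in MEFD0, 2.32 ± 0.478 and 2.81 ± 0.369 in the untreated and treated samples of day 3, and 2.14 ± 0.205 and 1.02 ± 0.113 in those of day 5 (SD, n = 3). The MEFD5plu samples, at 1.14, 0.918 and 0.990, were below the samples of every other condition, the next lowest being 1.91. The log2 difference between MEFD5plu and MEFD5min was -1.07, with the smallest p that this design allows (exact permutation p = 0.1, 0.2 after adjustment), and at day 3 it was 0.29 with overlapping samples (exact permutation p = 0.3).

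**Figure D2:**
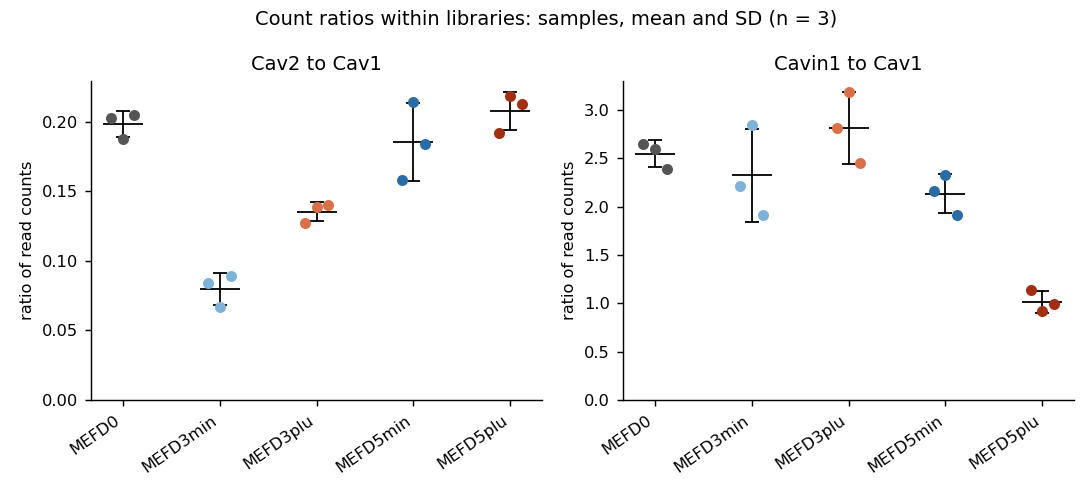
Ratio of read counts within each library, Cav2 to Cav1 (left) and Cavin1 to Cav1 (right), by condition; points are samples, lines the mean and SD (n = 3), axes linear from 0. The Cav2 to Cav1 ratio was lowest in MEFD3min, at 0.0800, and the Cavin1 to Cav1 ratio lowest in MEFD5plu, at 1.02.

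Cavin2, also called SDPR, is a cavin able to bend membranes and to lengthen caveolae. Its level was 735, 737 and 799 CPM in MEFD0. It was 231, 197 and 275 CPM in MEFD3min and 425, 408 and 487 CPM in MEFD3plu. At day 5 it was 676, 781 and 691 CPM without treatment and 660.3, 760.2 and 701 CPM with treatment. The day 3 groups were separate from each other and below all samples of the other 3 conditions, and those 3 overlapped. At day 3 the treated arm was 1.88-fold higher (log2 fold change 0.91 ± 0.11 SE, adjusted p = 2.53e-06). At day 5 no difference passed the threshold (-0.02, 95% interval -0.25 to 0.22, adjusted p = 0.912), an interval that leaves out changes of the size seen at day 3. The difference of the effects was 0.93 (95% interval 0.59 to 1.26, adjusted p = 0.000136). Cavin2 was the only one of the 6 without a treatment difference past the threshold at day 5.

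Cavin3, also called PRKCDBP, is a cavin that links caveolae to signalling proteins and binds protein kinase C delta. It was the one member with opposite effects on the 2 days. Its level was 64.1, 62.5 and 68.5 CPM in MEFD0. Without treatment it was 61.1, 54.7 and 77.2 CPM at day 3 and 73.3, 70.0 and 78.7 CPM at day 5, and with treatment 27.5, 25.9 and 29.2 CPM at day 3 and 109, 109 and 98.8 CPM at day 5. The MEFD3plu samples lay below all others and the MEFD5plu samples above all others. Between these extremes the order by mean was MEFD5min, MEFD0 and MEFD3min, and MEFD3min, the most spread, overlapped both of the others. Treatment went with a 2.33-fold lower level at day 3 (log2 fold change -1.22 ± 0.11 SE, adjusted p = 3.54e-08) and a 1.43-fold higher level at day 5 (0.51 ± 0.10, adjusted p = 0.000582). The difference of the effects, -1.74 (95% interval -2.05 to -1.42, adjusted p = 8.23e-08), had the largest size of the 6. Within the treated arm Cavin3 was 3.84-fold higher at day 5 than at day 3 (log2 fold change 1.94 ± 0.11, adjusted p = 1.81e-10).

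Ehd2 belongs to the EHD family of dynamin-related ATPases and confines caveolae to the cell surface. Its level was 278, 296 and 249 CPM in MEFD0. Without treatment it was 256, 300.0 and 258 CPM at day 3 and 199, 188 and 170.3 CPM at day 5. With treatment it was 827, 839 and 769.8 CPM at day 3 and 379.9, 343 and 353 CPM at day 5. The MEFD3plu samples were far above all others, MEFD0 and MEFD3min overlapped, and MEFD5min was the lowest. Ehd2 had the largest treatment difference of the 6 at day 3, 2.99-fold (log2 fold change 1.58 ± 0.091 SE, adjusted p = 2.05e-10), and was 1.93-fold higher at day 5 (0.95 ± 0.091, adjusted p = 2.73e-07). The difference of the effects was 0.63 (95% interval 0.36 to 0.90, adjusted p = 0.000652).

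**Figure D3:**
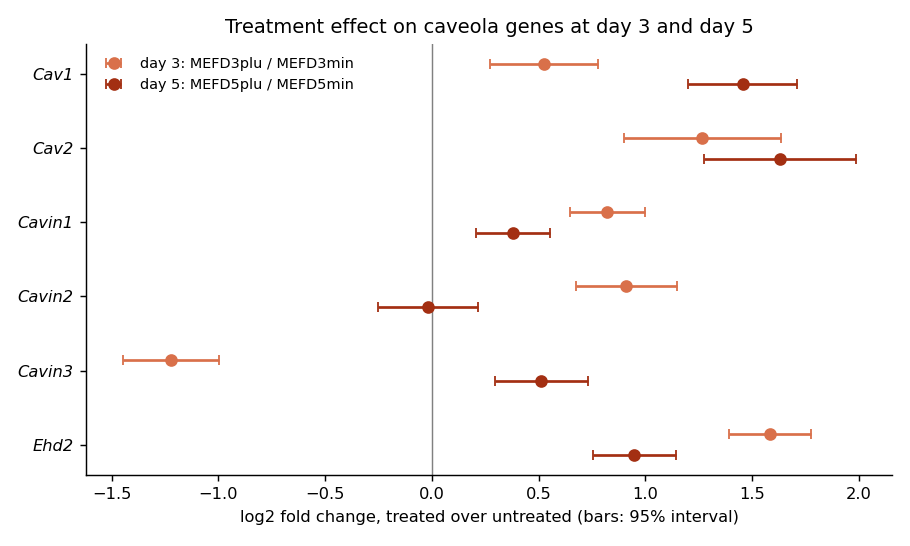
Log2 fold change of each expressed caveola gene with treatment at day 3 (MEFD3plu over MEFD3min, light) and day 5 (MEFD5plu over MEFD5min, dark), with 95% intervals from the fit over 15 samples. Cav1 was further to the right at day 5, Cavin1, Cavin2 and Ehd2 at day 3, and Cavin3 lay at -1.22 at day 3 and at 0.51 at day 5.

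Time without treatment also moved these genes. From day 0 to day 3 of the untreated arm 4 of the 6 fell and none rose, beside 28.6% of all genes lower and 31.4% higher. Cav2 fell by 1.72 ± 0.17 on the log2 scale (adjusted p = 2.23e-07) and Cavin2 fell by 1.69 ± 0.11 (adjusted p = 1.13e-09), while Cavin1 fell by 0.60 ± 0.083 (adjusted p = 7.99e-06) and Cav1 fell by 0.43 ± 0.12 (adjusted p = 0.00511). For Cavin3 and Ehd2 the log2 fold change was -0.02 in each case (95% intervals -0.24 to 0.20 and -0.21 to 0.18). From day 3 to day 5 of that arm 2 rose and 1 fell, beside 21.3% and 21.5% of all genes. Cavin2 rose 3.06-fold (log2 fold change 1.61 ± 0.11, adjusted p = 6.98e-09) and Cav2 rose 2.32-fold (1.21 ± 0.17, adjusted p = 2.81e-05), while Ehd2 fell by 0.55 ± 0.091 on the log2 scale (adjusted p = 0.000125). At day 5 untreated cells were below MEFD0 for 4 of the 6 (beside 21.9% of all genes lower and 24.5% higher). The log2 fold change was -0.66 for Cavin1, -0.56 for Ehd2, -0.51 for Cav2 and -0.40 for Cav1, and did not pass the threshold for Cavin2 (-0.08, adjusted p = 0.585) or Cavin3 (0.19, adjusted p = 0.156). Without MEFD0 replicate 1, MEFD0 replicate 4 or MEFD5min replicate 1, the Cav2 difference was no longer past the threshold (adjusted p = 0.0528, 0.0541 and 0.0871). The day 3 treatment effects and the day 0 to day 3 changes share the MEFD3min samples: relative to MEFD0, the MEFD3plu level of Cavin2 was lower, not higher.

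Set against day 0, MEFD3plu was higher for 2 genes and lower for 3, beside 33.9% and 29.7% of all genes. Ehd2 was 2.96-fold higher (log2 fold change 1.56 ± 0.091, adjusted p = 1.27e-10). Cavin3 was 2.36-fold lower (-1.24 ± 0.11, adjusted p = 1.92e-08) and Cavin2 1.72-fold lower (-0.78 ± 0.11, adjusted p = 9.88e-06). The small differences of 2 genes, Cavin1 with 0.22 ± 0.083 (adjusted p = 0.0277) and Cav2 with -0.46 ± 0.17 (adjusted p = 0.0265), were both lost without MEFD0 replicate 4 (adjusted p = 0.123 and 0.0623) and without MEFD3plu replicate 3 (adjusted p = 0.0696 and 0.0967), leaving 3 genes called. Cavin1 was also lost without MEFD3plu replicate 4 (adjusted p = 0.0553), and Cav2 without MEFD0 replicate 1 (adjusted p = 0.0587) and without MEFD3plu replicate 1 (adjusted p = 0.0947). For Cav1 the log2 fold change was 0.09 (95% interval -0.16 to 0.35). MEFD5plu was higher than MEFD0 for 4 genes and lower for 1, beside 35.2% and 29.8% of all genes. Cav2 was 2.18-fold (log2 fold change 1.12 ± 0.17, adjusted p = 1.71e-05), Cav1 2.08-fold (1.05 ± 0.12, adjusted p = 7.92e-07), Cavin3 1.62-fold (0.70 ± 0.10, adjusted p = 1.52e-05) and Ehd2 1.31-fold higher (0.39 ± 0.091, adjusted p = 0.00129). Cavin1 was 1.21-fold lower (-0.28 ± 0.083, adjusted p = 0.00720), and Cavin2 had a log2 fold change of -0.10 (adjusted p = 0.453). With scaling by total counts alone Ehd2 was no longer past the threshold (0.20, adjusted p = 0.0802), Cavin2 was (-0.28, adjusted p = 0.0194), and Cavin1 stood at -0.46 (adjusted p = 0.000114).

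Within the treated arm, between the day of cocktail withdrawal and day 5, all 6 differed, 4 being higher at day 5 and 2 lower, beside 33.8% and 29.2% of all genes. The caveolins rose, Cav2 2.99-fold (log2 fold change 1.58 ± 0.17, adjusted p = 6.02e-07) and Cav1 1.95-fold (0.96 ± 0.12, adjusted p = 3.14e-06), as did Cavin3 (3.84-fold) and Cavin2, which rose 1.61-fold (0.68 ± 0.11, adjusted p = 5.22e-05). Ehd2 fell by 1.18 ± 0.091 on the log2 scale (adjusted p = 1.14e-08) and Cavin1 fell by 0.50 ± 0.083 (adjusted p = 6.03e-05). Time and the removal of the drugs cannot be told apart in this comparison.

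Levels of different genes were compared per kilobase of annotated exon. In MEFD0 a pair of cavins led, Cavin2 with 248 CPM per kb and Cavin1 with 226, followed by Cav1 with 92.4, Ehd2 with 53.6, Cavin3 with 39.1 and Cav2 with 18.9. In MEFD3plu the order was Cavin1 (263), Ehd2 (159), Cavin2 (144), Cav1 (98.5), Cavin3 (16.6) and Cav2 (13.8). In MEFD5plu Cav1, at 192 CPM per kb, stood beside Cavin1 at 186 and below Cavin2 at 232. Among the untreated samples Cavin1 led at day 3 with 149 CPM per kb and Cavin2 at day 5 with 234. Cav2 had the lowest mean in every condition, between 5.75 and 41.2 CPM per kb. In MEFD3plu its samples, at 12.5 to 16.2, overlapped those of Cavin3, at 15.6 to 17.5.

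**Figure D4:**
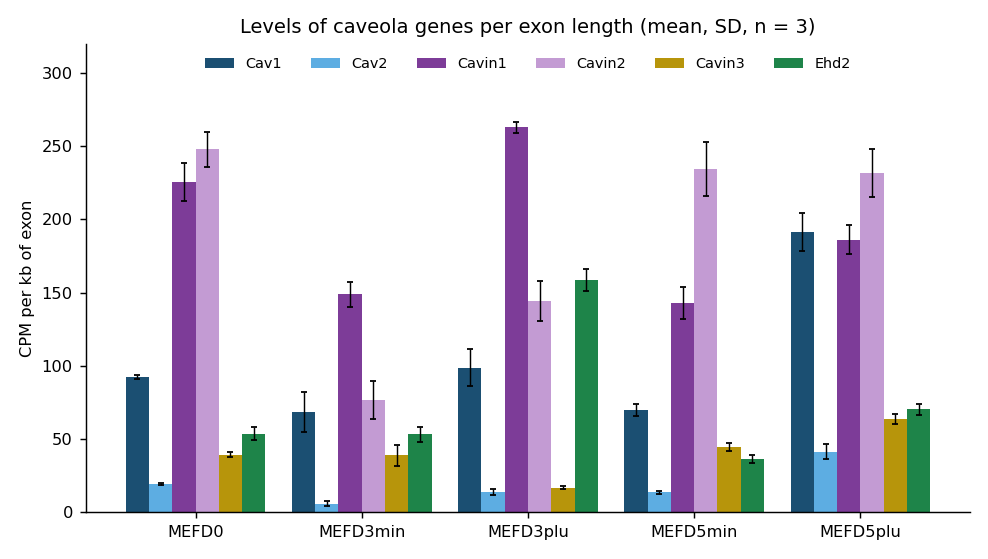
Mean CPM per kilobase of annotated exon for the 6 expressed caveola genes in each condition, with SD (n = 3), on a linear axis from 0. Cav1 rose from 98.5 in MEFD3plu to 192 in MEFD5plu, Ehd2 went from 159 to 70.1, and Cav2 was the lowest bar in every condition.

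A wider list of 14 genes that shape, regulate or accompany caveolae and membrane rafts was also counted. Of the 13 that could be tested (all but Pacsin1), 4 were higher and 5 lower with treatment at day 3, with a median log2 fold change of 0.14, and 2 were higher and 8 lower at day 5, with a median of -0.36. Over all genes the shares were 28.0% higher and 28.0% lower at day 3 and 26.3% and 24.2% at day 5, so that the day 3 counts are near the background. Among the relatives of Ehd2, Ehd1, which acts in endocytic recycling, was higher at day 3 (log2 fold change 0.87 ± 0.093 SE, adjusted p = 4.27e-07) and lower at day 5 (-0.36 ± 0.093, adjusted p = 0.00396). The difference of its effects was 1.23 (adjusted p = 1.01e-06), and its mean rose from 116 CPM to 211 between MEFD3min and MEFD3plu and went from 147 to 115 between MEFD5min and MEFD5plu. Ehd4 was lower on both days (-0.86 ± 0.079 and -0.36 ± 0.076, adjusted p = 6.58e-08 and 0.000853). Ehd3 was higher at day 5 from a low level (0.417 CPM in MEFD5min and 0.938 in MEFD5plu, log2 fold change 1.15 ± 0.34, adjusted p = 0.0105). Of the F-BAR proteins that bend the membrane at caveolae, Pacsin2 was lower at day 5 (-0.48 ± 0.11, adjusted p = 0.00152) with no call at day 3 (0.14, adjusted p = 0.288), and Pacsin3 was lower on both days (-0.36 ± 0.10 and -0.33 ± 0.10, adjusted p = 0.00711 and 0.0140). The receptor tyrosine kinase Ror1 was higher on both days (1.24 ± 0.18 and 1.22 ± 0.23, adjusted p = 1.21e-05 and 0.000308), with means of 5.45 CPM untreated and 12.9 treated at day 3, and of 0.903 and 2.13 at day 5. Src, the kinase that phosphorylates caveolin-1, was lower at day 3 (-0.99 ± 0.13, adjusted p = 7.36e-06) and at day 5 (-0.91 ± 0.13, adjusted p = 2.67e-05). The raft protein gene Flot1 was lower at day 3 (-0.88 ± 0.091, adjusted p = 2.82e-07) with 0.0017 at day 5 (adjusted p = 0.991), and the difference of its effects was -0.88 (adjusted p = 2.73e-05). Cavin4, the muscle cavin, was low throughout and lower with treatment at day 5 (2.04 CPM in MEFD5min and 0.953 in MEFD5plu, -1.10 ± 0.28, adjusted p = 0.00391).

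The course over the 15 samples linked some of these genes more than others. Pearson's r of log2 CPM was 0.88 for Cav1 and Cav2 (Spearman's rho 0.8), 0.81 for Cav2 and Cavin2 (rho 0.76) and 0.81 for Cavin1 and Ehd2 (rho 0.79). It was -0.73 for Cavin3 and Ehd2, with a rho of only -0.36, and -0.61 for Cavin3 and Cavin1 (rho -0.51). These are descriptions over 15 samples that share 5 conditions, so no p is given. Ranked against 9586 genes that averaged 3 or more on the log2 CPM scale, the 3 most like Cav1 were Dbi (r = 0.98), which encodes acyl-CoA-binding protein, Crls1 (0.98), cardiolipin synthase, and Sdhb (0.97), a subunit of succinate dehydrogenase. Those most like Cav2 were Akr1b3 (0.98), aldose reductase, Mrps22 (0.97), a mitochondrial ribosomal protein, and Rnf141 (0.97). Cavin1 was most like Letm1 (0.97), a protein of the inner mitochondrial membrane, Ccn3 (0.97), a matricellular protein, and Gatc (0.97), while Cavin2 was most like Lin9 (0.97), of the DREAM cell cycle complex, Ubr7 (0.97) and Rars (0.97), arginyl-tRNA synthetase. Cavin3 was most like Slfn9 (0.99), Bhlhb9 (0.99) and Aida (0.99), and Ehd2 most like Aldh4a1 (0.99), an enzyme of proline breakdown, Add3 (0.99), the gamma adducin of the membrane skeleton, and Poldip2 (0.98). No caveola gene was among the 3 most like another. These r values are the highest among 9586 genes over samples that share 5 conditions, and each member had a match at 0.97 or more. Shared function or regulation was not tested.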

How the data were processed

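Raw counts per Ensembl gene were deposited by the authors, 1 file per sample; the submitters' processing notes name TopHat2 2.1.0, HTSeq and DESeq2 and the build GRCm38 (mm10). The annotation release, the strand setting and the handling of multiply mapped reads are not given in the sources used here. Genes were named from the GENCODE annotation of GRCm38 (46091 of 46603 identifiers), which also gave exon lengths.

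Counts were tested in edgeR 4.0.16 (R 4.3.3) with TMM scaling, filterByExpr (15997 genes kept) and the quasi-likelihood test, in 1 fit over the 15 samples with a mean per condition, and adjusted over all genes tested (Benjamini-Hochberg, threshold 0.05). Standard errors and 95% intervals of the 6 tested caveola genes come from the weights of that fit. The spread is thus shared over all conditions, also those with tighter samples. In the same test on the compared samples only, the adjusted p at day 3 was larger for each of the 6. For Ehd2 it was 3.66e-06 against 2.05e-10. At day 5 it was larger for some of the 6 and smaller for others. For all other genes the standard error is the absolute log2 fold change divided by the square root of the test's F statistic. The day 3 and day 5 effects were compared by an interaction term. Count ratios were compared by exact two-sided permutation tests over samples. Levels are TMM-scaled CPM; likeness was taken on log2 CPM (prior count 2). The scripts were tested on simulated data. Libraries held 24030558 to 37281126 counts; counting error is part of the spread between replicates, which the fit estimates from the samples. No 2 replicates agreed within sampling noise (chi-square per degree of freedom 5.92 to 119).

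All 7 genes are named, with the 3 largest changes past the threshold in each treatment comparison and 4 fixed genes (Pacsin2, Pacsin3, Ehd1, Ehd4) of the wider list, the 3 genes most like each member, and markers beside results. The 7 genes and all lists were chosen with earlier results of these data known.

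The replicate numbers come from the sample titles. Deviations from the condition means of same-numbered MEFD3plu and MEFD3min samples correlated at 0.14 to 0.36 over genes, so these samples deviated in part together. For MEFD3min and MEFD0 the range was 0.084 to 0.18, and for MEFD5plu and MEFD5min it was -0.0045 to 0.054. The labels do not say what the numbers stand for, and the main fit and the ratio tests did not use them. The fit with the replicate number as a block was an alternative, beside DESeq2 1.42.0, its size factors in edgeR, total counts alone, no filter, at least 10 counts in every sample, the compared samples only, and leaving out each replicate in turn.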

Additional observations from a re-analysis of the deposited data

Results flagged for a closer look

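The effect of treatment differed between day 3 and day 5 for 5 of the 6 genes measured, by the test of the difference itself (edgeR's interaction term, adjusted over all genes tested, 3 samples per condition). Over all genes tested, 22.6% were called with a higher log2 fold change at day 3 than at day 5 and 25.8% with a lower one. The sign tells which value was higher, not on which day the effect was stronger. The log2 difference, day 3 effect minus day 5 effect, was -1.74 for Cavin3, -0.93 for Cav1, 0.93 for Cavin2, 0.63 for Ehd2 and 0.44 for Cavin1. Cavin3 is the case in which the direction turned, every MEFD3plu sample lying below every MEFD3min sample and every MEFD5plu sample above every MEFD5min sample. Marker lists moved with the same contrast: of 9 fibroblast genes none had a higher and 7 a lower value (median -1.03), and of 5 smooth muscle genes 1 had a higher and 2 a lower value (median -0.63). Of 7 adipocyte genes tested none had a higher and 4 a lower value (median -0.50). Of 3 endothelial genes tested none had a higher and 2 a lower value, and of 3 macrophage genes 1 had a higher and 1 a lower value, all at low levels. No striated muscle gene was called. The mean fibroblast sum was 29249 CPM in MEFD3min and 12891 in MEFD3plu, and 15030 in MEFD5min and 12905 in MEFD5plu. The part of these lists in the differences was not tested.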

How the results depend on the processing

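Of 738 alternative log2 fold changes of the 6 genes in the 9 comparisons, 700 kept their direction and side of the threshold, 15 were no longer past it, 6 newly passed it and 17 changed sign, all of these in 6 differences that were past the threshold neither before nor after. With 1 replicate left out these ranged from -0.085 to 0.048 for Cavin2 in MEFD5plu against MEFD5min, from -0.17 to 0.087 for Cavin3 and -0.096 to 0.038 for Ehd2 in MEFD3min against MEFD0, from -0.090 to 0.20 for Cav1 and -0.11 to 0.0018 for Cavin1 in MEFD5min against MEFD3min, and from -0.012 to 0.17 for Cav1 in MEFD3plu against MEFD0. A minimum of 10 counts in every sample gave 0.0087 for Cavin3 and 0.0098 for Ehd2 in MEFD3min against MEFD0, no filter gave -0.0100 for Cav1 in MEFD5min against MEFD3min, and total counts alone gave 0.046 for Cavin1 in MEFD5min against MEFD3min and -0.013 for Cav1 in MEFD3plu against MEFD0. The count of genes called for MEFD3plu against MEFD0, 5, ranged from 3 to 5 when 1 replicate was left out; it was 3 without MEFD0 replicate 4 and without MEFD3plu replicate 3. In that comparison Cavin1 was past the threshold neither with DESeq2's size factors (adjusted p = 0.0527), total counts alone (0.225), no filter (0.0791) nor the compared samples only (0.0581). Scaling by total counts alone shifted the all-gene median (log2) from 0.010 to -0.15 for MEFD5plu against MEFD5min, from -0.033 to 0.15 for the difference of effects, from 0.068 to -0.12 for MEFD5plu against MEFD0 and from 0.041 to -0.076 for MEFD3min against MEFD0. Cav2 had a difference of effects past the threshold with no filter (-0.38, adjusted p = 0.0465). Cavin3 passed it in MEFD5min against MEFD3min with total counts alone (0.31, adjusted p = 0.0123) and without MEFD3min replicate 4 (0.36, adjusted p = 0.00277), and in MEFD5min against MEFD0 with the compared samples only (0.21, adjusted p = 0.0390). The cause of these changes was not tested. The replicate block changed no call of the 6 genes: 6 were called at day 3 and 5 at day 5 with it. The 4 count ratios kept their direction when any replicate was left out; with 3 samples a condition their tests could not pass the threshold. Depth limits only Cav3, which had no counts.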
